A study of Rattus norvegicus with 6 samples.

Results

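The genes described here encode parts of the machinery by which cells make and release exosomes, small membrane vesicles that carry protein, lipid and RNA between cells. They are 10 rat genes taken from a table of 24005 gene symbols by their names, namely Cd63, Cd9, Cd81, Hgs, Tsg101, Pdcd6ip, Sdcbp, Rab27a, Rab27b and Smpd3. The rule uses no measured value, although the set was drawn up with earlier results of these data known. The levels come from RNA sequencing of aortas from rats with experimental kidney disease (CKD), in 3 libraries from rats given engineered exosomes and 3 libraries from rats given saline. The exosome group received 10 mg/kg of a preparation named ANCR/E7-EXO by tail vein every 5 days, and the saline group received an equal volume of normal saline for 13 weeks. Rats of both groups had lost renal mass by a subtotal nephrectomy of the left kidney and the removal of the right one, and both were fed 1.2% phosphorus to speed up calcification. The labels used here leave strain, sex and age unsaid. Nothing in the labels ties the libraries to separate rats, and every p-value below measures only the spread between these libraries, which may be technical.

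Exosomes form inside the cell, as vesicles that bud into the lumen of late endosomes, and they leave the cell when such an endosome fuses with the plasma membrane. Proteins of the ESCRT complexes gather cargo and bend the membrane, the syntenin and ALIX proteins offer a linked route that starts from syndecans, and the lipid ceramide can drive budding without ESCRT. Tetraspanins are membrane proteins so common on exosomes that they serve as their markers, and RAB27 proteins bring the loaded endosome to the cell surface. In the arterial wall, smooth muscle cells release vesicles of this kind, and vesicles that gather calcium and phosphate are known as early sites of mineral in the calcifying media. The measurements below are of the vessel wall's messenger RNA for this machinery and not of vesicles.

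Values are FPKM, reads scaled to the length of the gene and to the total of the library. Levels can be compared between genes of a library only as far as the annotation and the assignment of reads hold, which are not given here. Differences between libraries also depend on the scaling. The FPKM of a library summed to between 429525 in exosome 2 and 456869 in saline 2. The FPKM steps implied totals of 28063355 to 44561082 reads or read pairs per exosome library and 29665532 to 34009970 per saline library. Smooth muscle genes marked the tissue. Acta2, the smooth muscle actin, stood at 9086, 5654 and 8516 FPKM in the exosome libraries and at 8997, 4989 and 4584 FPKM in the saline libraries. Of the 7 lymphocyte markers only Cd4 reached a mean FPKM of 1, and the 7 skeletal and cardiac muscle markers summed to 25.8 to 41.7 FPKM in the exosome libraries and 32.7 to 52.04 FPKM in the saline libraries, with Myh4 alone at 0 in all of them. Saline 2 stood apart in fat, with a summed level of 6 adipocyte markers of 1099 FPKM against 318.1 to 627.3 FPKM in the other five libraries, and in mitochondrially encoded reads, with 6.77% of reads on genes against 3.91% to 4.90% in the others.

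The 10 genes spanned about 3 orders of magnitude. Cd9 averaged 663.2 FPKM over the 6 libraries, Cd63 373.9, Cd81 312 and Sdcbp 279.4 FPKM, so that these 4 lay above 98% of the genes tested. A middle group followed, with averages of 31.8 FPKM for Tsg101, 31.2 for Pdcd6ip, 30.03 for Rab27a, 20.9 for Hgs and 15.1 for Smpd3. Rab27b averaged 0.615 FPKM. Cd9 was the highest of the 10 in all 6 libraries and Rab27b the lowest in all 6. The order of Cd63, Cd81 and Sdcbp was not fixed, since Cd63 exceeded Cd81 in 5 of 6 libraries and Cd81 exceeded Sdcbp in 4 of 6. The ranges of Tsg101, Pdcd6ip and Rab27a also overlapped, while Sdcbp was at least 7.57 times Tsg101 in every library.

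**Figure D1:**
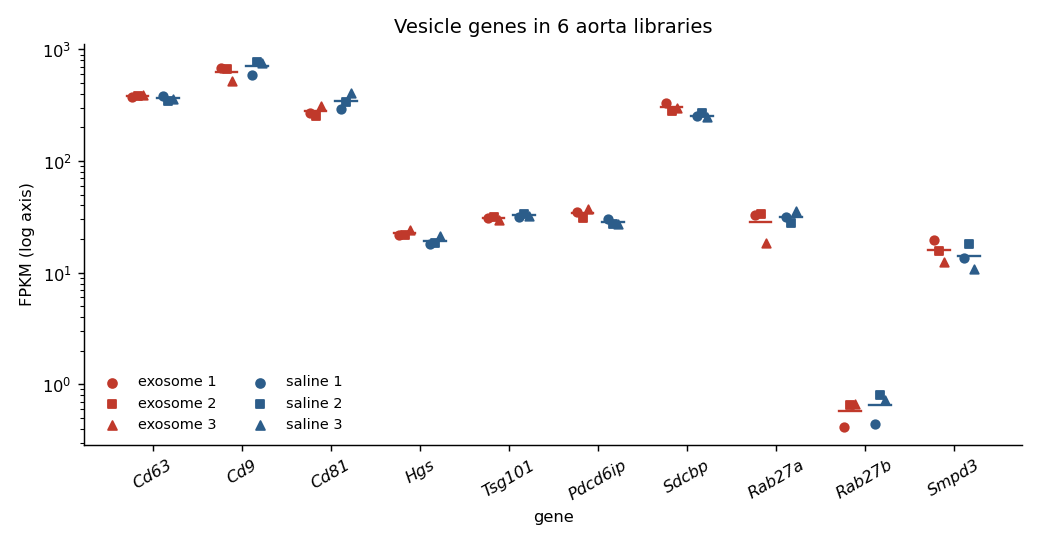
Level of each of the 10 genes in FPKM on a log axis, with exosome libraries in red left of saline libraries in blue and a marker shape for each library number. Horizontal bars are group means. Cd9, Cd63, Cd81 and Sdcbp form the upper tier, Rab27b lies below 1 FPKM in all 6 libraries, and Rab27a in exosome 3 lies at 18.4 FPKM, below the other five.

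The tetraspanins are the cargo by which exosomes are usually recognised, and none of the 3 differed between the groups past the threshold. Cd63, which also sits in the membrane of lysosomes and late endosomes, had 376.9, 379.5 and 393.7 FPKM in exosome 1, 2 and 3, against 386.4, 346.6 and 360.1 FPKM in saline 1, 2 and 3. The groups overlapped, and the exosome libraries lay within a narrow band, with a coefficient of variation of 2.37% against 5.55% among the saline libraries. Its log2 difference, exosome minus saline on the log2(FPKM + 1) scale, was 0.07 ± 0.11 (SE), with a 95% interval of -0.17 to 0.32. In fold terms that interval runs between 0.89 and 1.25, so a doubling of Cd63 lies outside it.

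Cd9, a tetraspanin of many cell types that also acts in cell fusion and adhesion, had 679, 667.9 and 518.2 FPKM in the exosome libraries and 585.2, 768 and 761.2 FPKM in the saline libraries. The lowest value was that of exosome 3 and the next that of saline 1, so the groups overlapped. On the log2 scale the difference came to -0.18 ± 0.17 (SE), and the adjusted p was 0.595. Cd81, a partner of integrins and of immune receptors, had 267.4, 255.4 and 313.8 FPKM with exosomes, against 292.8, 337.4 and 405.2 FPKM with saline. Its mean was 278.8 ± 30.8 FPKM in the exosome group and 345.1 ± 56.6 FPKM in the saline group (SD, n = 3 each), and exosome 3 lay above saline 1. Cd81 had the most negative log2 difference of the tested members, -0.30 ± 0.15 (SE) with an adjusted p of 0.363, and its interval of -0.66 to 0.06 holds 0.

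The genes of cargo sorting and budding split in another way. Hgs encodes HRS, the ESCRT-0 subunit that holds ubiquitinated cargo on the endosome. Its level was 21.9, 21.9 and 24.2 FPKM in the exosome libraries and 18.2, 18.3 and 21.1 FPKM in the saline libraries, so every exosome library was above every saline library. The mean was 22.7 ± 1.34 FPKM in the exosome group and 19.2 ± 1.64 FPKM in the saline group (SD, n = 3 each), a ratio of 1.18. The log2 difference was 0.23 ± 0.11 (SE), with an unadjusted p of 0.0680 and an adjusted p of 0.337 in limma. The gap between the groups was narrow, since exosome 1 and saline 3 were less than 1 FPKM apart.

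Pdcd6ip encodes ALIX, which binds syntenin and recruits the ESCRT-III filaments that cut vesicles free. It stood at 34.8, 30.6 and 37.2 FPKM with exosomes, against 30.3, 27.3 and 27.1 FPKM with saline. The groups did not overlap, although exosome 2 exceeded saline 1 by only a fraction of 1 FPKM. The log2 difference of 0.26 ± 0.11 (SE) had an unadjusted p of 0.0467 and an adjusted p of 0.309. Sdcbp encodes syntenin, the adaptor between syndecans and ALIX. It stood at 331, 280.3 and 299.2 FPKM with exosomes and at 251.5, 268.7 and 245.8 FPKM with saline, again with all 3 exosome libraries on top. Its mean was 303.5 ± 25.7 FPKM in the exosome group and 255.3 ± 11.9 FPKM in the saline group (SD, n = 3 each). Its log2 difference of 0.25 ± 0.11 (SE) had an unadjusted p of 0.0613 and an adjusted p of 0.328.

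Tsg101, the ESCRT-I subunit to which both HRS and ALIX bind, did not share this direction. It stood at 31.1, 31.8 and 29.8 FPKM in the exosome libraries and at 31.7, 33.8 and 32.4 FPKM in the saline libraries. It was among the steadiest of the 10 genes, with a coefficient of variation of 3.22% in the exosome group and 3.28% in the saline group. The log2 difference was -0.08 ± 0.09 (SE), and the 95% interval of -0.29 to 0.14 leaves room for a difference of about the size seen for Hgs only in the lower direction. That one-sidedness depends on the scaling, since the log2 difference of Tsg101 was -0.003 after each library was rescaled to the median of ratios.

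**Figure D2:**
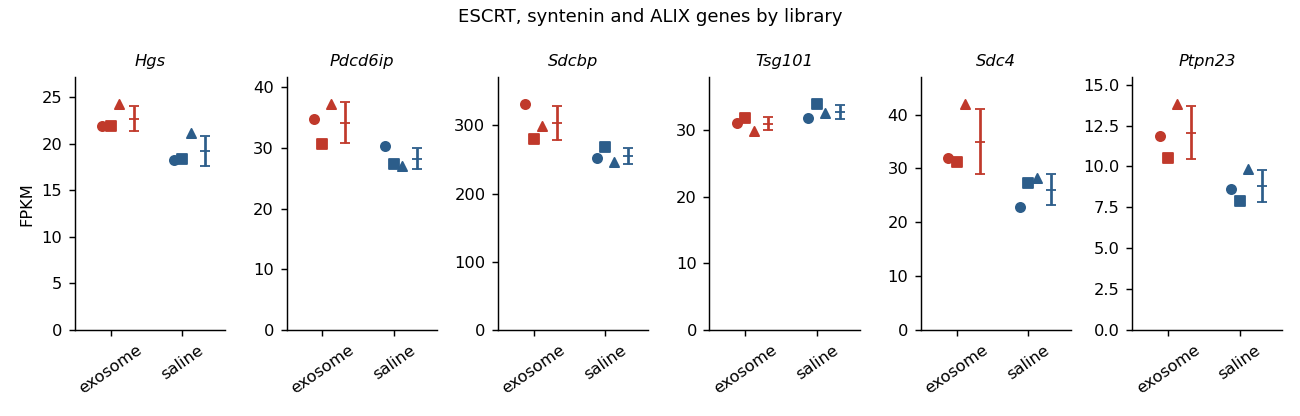
Level in FPKM of Hgs, Pdcd6ip, Sdcbp and Tsg101, and of the related genes Sdc4 and Ptpn23, on linear axes from 0, with exosome libraries in red left of saline libraries in blue. Circles, squares and triangles are library 1, 2 and 3, and the bars beside them are mean ± SD (n = 3 each). The 3 exosome libraries lie above the 3 saline libraries for every gene but Tsg101. Sdc4 and Ptpn23 are the only 2 of the 10 tested genes of their list with groups apart. Of those 10 genes 5 were higher and 5 lower, so the panels do not stand for the list.

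Promoters are shown for the ESCRT and ALIX genes whose groups did not overlap, Pdcd6ip and Hgs, and for Cd63, the other member that holds the motif marked. Each is 250 bases before to 50 bases after the annotated start, from RefSeq on the GRCr8 build, read along the strand of the gene. Capitals mark CACGTG, the E-box palindrome that basic helix-loop-helix factors bind.
Pdcd6ip, chr8:122524944-122525243, minus strand: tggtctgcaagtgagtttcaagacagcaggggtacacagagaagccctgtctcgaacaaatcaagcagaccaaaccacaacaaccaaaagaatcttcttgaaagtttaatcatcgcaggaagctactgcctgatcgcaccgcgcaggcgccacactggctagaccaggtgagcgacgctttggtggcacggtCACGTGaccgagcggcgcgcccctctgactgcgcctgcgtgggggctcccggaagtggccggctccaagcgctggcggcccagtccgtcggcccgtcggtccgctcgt
Hgs, chr10:106237868-106238167, plus strand: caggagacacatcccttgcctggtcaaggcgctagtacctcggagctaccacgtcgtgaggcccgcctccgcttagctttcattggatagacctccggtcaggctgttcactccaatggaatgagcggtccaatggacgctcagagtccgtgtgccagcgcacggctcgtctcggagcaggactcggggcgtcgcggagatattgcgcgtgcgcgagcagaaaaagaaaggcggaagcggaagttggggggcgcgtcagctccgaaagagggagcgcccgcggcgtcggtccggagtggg
Cd63, chr7:1921894-1922193, plus strand: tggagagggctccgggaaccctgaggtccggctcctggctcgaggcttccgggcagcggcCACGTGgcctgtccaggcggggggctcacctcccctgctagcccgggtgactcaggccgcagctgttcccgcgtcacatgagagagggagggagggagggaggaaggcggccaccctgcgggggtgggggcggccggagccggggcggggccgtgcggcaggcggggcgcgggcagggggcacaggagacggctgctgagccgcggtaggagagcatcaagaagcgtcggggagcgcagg
The table held a promoter for 8 of the 10 genes, without Sdcbp and Smpd3. CACGTG, which reads the same on both strands, was in 2 of the 8, starting 58 bases before the start in Pdcd6ip and 190 bases before it in Cd63, and in 6.42% of 33469 promoters of that length. The longer palindrome TCACGTGA, which contains CACGTG, was in Pdcd6ip alone of the 8 and in 0.777% of all promoters. GGGCGG, the GC box, searched on both strands and able to share only an end base with CACGTG, was in Tsg101, Cd81, Cd9, Cd63 and Rab27a, and in 33.1% of all promoters. Pdcd6ip and Hgs held no GC box, so these genes shared none of the motifs searched. The labels name no build for the deposited table, and a match of letters is a description of the window.

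The RAB27 genes stood far apart in level. Rab27a, which tethers multivesicular endosomes at the plasma membrane and also acts on melanosomes and lytic granules, had 32.8, 33.6 and 18.4 FPKM with exosomes and 31.8, 27.8 and 35.9 FPKM with saline. Exosome 3 alone stood low, and exosome 1 and 2 lay inside the range of the saline libraries. On the log2 scale the difference came to -0.21 ± 0.23 (SE), the adjusted p was 0.656, and without exosome 3 it turned to 0.07. Rab27b, the paralog that acts in secretory cells and in vesicle transport towards the surface, had 0.418, 0.649 and 0.660 FPKM with exosomes, against 0.438, 0.803 and 0.721 FPKM with saline. These values rest on 41 to 84 reads per library, and the 95% Poisson interval of exosome 1, 0.2997 to 0.567 FPKM, overlapped that of saline 1, 0.316 to 0.592 FPKM. The interval of saline 2, 0.623 to 1.02 FPKM, lay above both, so counting error does not cover the whole spread of the libraries. Such intervals cover counting error only. Rab27b lay below the minimum of the test, a mean of 1 FPKM, and without that minimum its log2 difference was -0.07 with an adjusted p of 0.818.

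Smpd3 encodes the neutral sphingomyelinase nSMase2, which makes ceramide at membranes and whose loss in mice disturbs the mineral of bone and cartilage. It stood at 19.5, 15.8 and 12.6 FPKM in the exosome libraries and at 13.6, 18.2 and 10.8 FPKM in the saline libraries. Both groups spread widely and their ranges overlapped, with coefficients of variation of 21.8% among the exosome libraries and 26.6% among the saline libraries. On the log2 scale the difference came to 0.17 ± 0.22 (SE), the adjusted p was 0.702, and without saline 3 it was -0.005. The 95% interval of 0.79 to 1.6 in fold terms is the widest upward range of the tested members.

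Of the 10 genes 9 passed the minimum, through 1302 to 28424 reads per library, and 5 of the 9 were higher and 4 lower with exosomes. None passed the adjusted threshold of 0.05 in limma, where 1 of 11742 genes (0.00852%), the transcription factor gene Zbtb16, did so. At an unadjusted p under 0.05 limma had 1 member higher, Pdcd6ip, and none lower, against 6.75% of all genes higher and 9.24% lower. A fit with limma-voom on recovered reads also had none past the adjusted threshold and 1 at an unadjusted p under 0.05, Hgs, against 9.26% of all genes higher and 8.04% lower in that fit. The balance over all genes turned with the scaling, to 9.7% higher and 7.15% lower at an unadjusted p under 0.05 after rescaling to the median of ratios, and to 8.14% higher and 6.31% lower after rescaling to equal sums. Groups that did not overlap were found for 3 of the 9 members as higher, namely Hgs, Pdcd6ip and Sdcbp, against 9.4% of all tested genes, and for none as lower, against 11.7%. With 9 genes, the count of 3 is a description of these libraries. After each library was rescaled to the median of ratios, Pdcd6ip overlapped and 2 remained apart, against 12.2% of all genes apart as higher. The median log2 difference was 0.07 over the 9 members and -0.073 over all tested genes, of which 39.3% were higher. With median-of-ratios scaling the median over all genes was -0.006 and 49% were higher. The number of genes past the threshold over the whole table was 0 without exosome 1 or without saline 3, 2 without exosome 3, 4 without exosome 2 and 9 without saline 1, and none of these was a member.

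**Figure D3:**
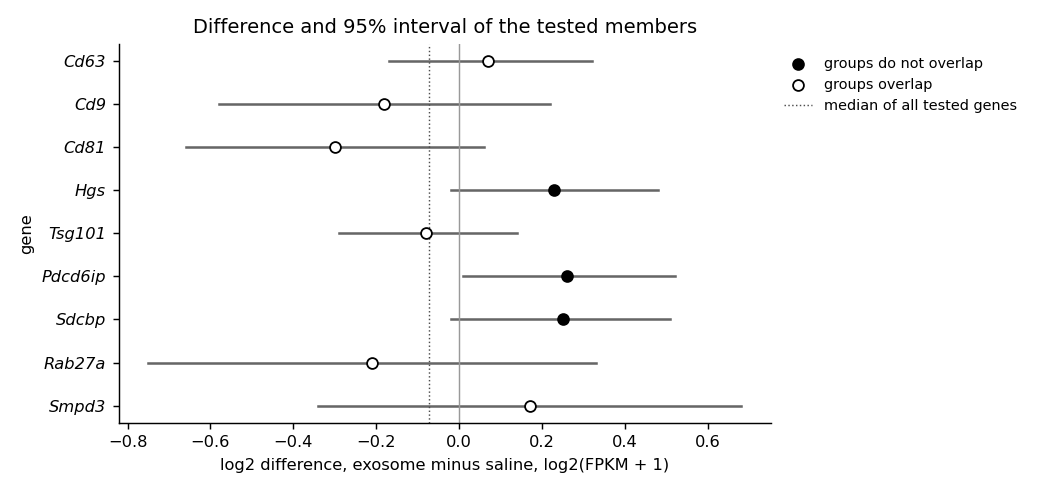
Log2 difference, exosome minus saline on the log2(FPKM + 1) scale, of the 9 tested members, with bars for the 95% interval in limma. Filled points are genes whose groups did not overlap, and the dotted line is the median of all tested genes, -0.073. The filled points, Hgs, Pdcd6ip and Sdcbp, lie between 0.23 and 0.26, and the intervals of all but Pdcd6ip hold 0.

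Summed levels of macrophage, endothelial and lymphocyte markers did not overlap between the groups and lay on the same side as Hgs, Pdcd6ip and Sdcbp, although no single marker passed the adjusted threshold. All 8 macrophage markers had positive log2 differences, 6 of them with groups that did not overlap, against 9.4% of all tested genes. Their summed level was 142.9 to 172.8 FPKM in the exosome libraries and 100.9 to 118.1 FPKM in the saline libraries. Of the 9 endothelial markers 8 had positive log2 differences, 5 with groups apart, and Kdr had a negative one of -0.29, with sums of 155.5 to 232.1 FPKM in the exosome libraries and 98.8 to 140.5 FPKM in the saline libraries. The 7 lymphocyte markers summed to 15 to 20.6 FPKM with exosomes and 13.2 to 14.2 FPKM with saline. All 6 adipocyte markers had negative log2 differences, with a median of -0.42 and with sums of 355.9 to 627.3 FPKM in the exosome libraries and 318.1 to 1099 FPKM in the saline libraries, which overlapped. No macrophage or endothelial marker was at 0 in any library, and the part of these cells in the vesicle gene values was not tested. In whole tissue, more or fewer cells of a type and more or less RNA per cell cannot be told apart.

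Ratios within a library do not depend on how the libraries were scaled, and 6 were compared. Hgs over Tsg101, the ESCRT-0 subunit over the ESCRT-I subunit, was 0.704, 0.689 and 0.811 in the exosome libraries, against 0.574, 0.541 and 0.650 in the saline libraries. All 3 exosome ratios were above all 3 saline ratios. The mean log2 ratio differed by 0.32, with an exact two-sided permutation p of 0.1, the smallest that 3 libraries against 3 allow, and a Benjamini-Hochberg value of 0.6 over the 6 ratios. Sdcbp over Pdcd6ip, in contrast, was 9.52, 9.16 and 8.04 with exosomes and 8.31, 9.82 and 9.08 with saline, and the log2 difference of this ratio was -0.03 (exact permutation p = 0.8). The ranges of this ratio overlapped, with exosome 3 the lowest and saline 2 the highest.

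Among the tetraspanins, Cd63 over Cd81 was 1.41, 1.49 and 1.25 in the exosome libraries and 1.32, 1.03 and 0.889 in the saline libraries, with saline 1 inside the exosome range. The log2 difference of this ratio was 0.38 (exact permutation p = 0.2). Cd9 over Cd81 ran from 1.65 to 2.62 in the exosome libraries and from 1.88 to 2.28 in the saline libraries (exact permutation p = 0.7). Rab27a over Rab27b ran from 27.8 to 78.6 with exosomes and from 34.6 to 72.5 with saline (exact permutation p = 1), so Rab27a exceeded its paralog by more than 27 times in every library. Smpd3 over Smpd1, the neutral over the acid lysosomal sphingomyelinase, was 0.297 to 0.391 with exosomes and 0.201 to 0.386 with saline (exact permutation p = 0.3). By FPKM the acid enzyme's gene was thus the higher of the pair in all 6 libraries.

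**Figure D4:**
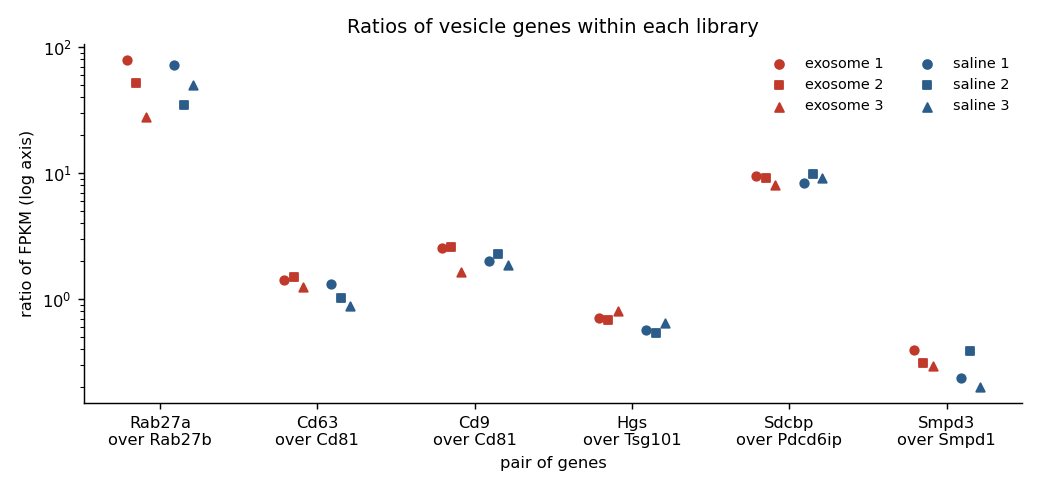
Ratio of FPKM within each library for 6 pairs of genes on a log axis, with exosome libraries in red left of saline libraries in blue. Only Hgs over Tsg101 has groups that do not overlap, at 0.689 to 0.811 with exosomes and 0.541 to 0.650 with saline.

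The wider pathway was read from 9 lists with 139 genes, of which 123 were tested. None passed the adjusted threshold in limma or in the fit on recovered reads. At an unadjusted p under 0.05 limma had 9 higher (7.32%) and 3 lower (2.44%), against 6.75% and 9.24% of all genes. At the same level the fit on recovered reads had 11 higher and 0 lower, where all genes had 9.26% higher and 8.04% lower. Groups did not overlap for 12 genes as higher (9.76%) and 10 as lower (8.13%), against 9.4% and 11.7% of all tested genes. The median log2 difference of the 123 was -0.04.

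The syndecan, syntenin and ALIX route held 10 tested genes, 5 higher and 5 lower. Groups were apart for 2 of them, both higher (20%), against 9.4% of all tested genes apart as higher and 11.7% as lower. With 10 genes this count is a description only. Sdc4, a syndecan whose cytoplasmic tail binds syntenin, stood at 31.9, 31.2 and 41.9 FPKM with exosomes, against 22.9, 27.2 and 28.2 FPKM with saline (log2 difference 0.40, adjusted p = 0.287). Ptpn23, which encodes the ALIX relative HD-PTP, stood at 11.9, 10.5 and 13.8 FPKM with exosomes and at 8.64, 7.89 and 9.86 FPKM with saline (log2 difference 0.41, adjusted p = 0.281). Sdc3, the next by p, had the other sign, with 39.0 ± 4.02 FPKM in the exosome group and 48.7 ± 8.43 FPKM in the saline group (SD, n = 3 each) and overlapping groups.

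Of 26 tested ESCRT subunits other than Hgs and Tsg101, 8 were higher (30.8%) and 18 lower, against 39.3% higher over all tested genes. Their median log2 difference was -0.07, equal to that of all tested genes. Groups were apart for 4 as higher (15.4%) and 3 as lower (11.5%), against 9.4% and 11.7% of all tested genes. Vps37b, an ESCRT-I subunit, had 4.74, 4.25 and 6.50 FPKM with exosomes, against 3.44, 3.27 and 3.27 FPKM with saline (log2 difference 0.49, adjusted p = 0.277). Its relative Vps37c had 2.54, 3.01 and 1.74 FPKM with exosomes and 0.5595, 1.86 and 0.403 FPKM with saline, so saline 2 lay inside the exosome range. Vps25, of ESCRT-II, was on the lower side with groups apart, at 44.4, 40.3 and 39.8 FPKM with exosomes and 49.4, 52.95 and 48.8 FPKM with saline (log2 difference -0.27, adjusted p = 0.285).

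Other tetraspanins numbered 20 tested, 10 higher and 10 lower. Cd151, a partner of laminin-binding integrins, had the greatest log2 difference of all listed vesicle genes, 1.87 ± 0.76 (SE), and also a very wide spread. It stood at 11.4, 38.04 and 45.3 FPKM in the exosome libraries and at 2.79, 23.2 and 3.98 FPKM in the saline libraries, so saline 2 exceeded exosome 1, and its adjusted p was 0.305. Tspan6 had 25.9 ± 2.44 FPKM in the exosome group and 31.2 ± 2.44 FPKM in the saline group, and Tspan17 had 2.61 ± 0.274 and 3.47 ± 0.549 FPKM in the exosome and saline groups (SD, n = 3 each), with adjusted p of 0.314 and 0.354. Of the 8 genes for tetraspanin partners, Ptgfrn and Igsf8, which encode the immunoglobulin proteins bound by CD9 and CD81, both had groups apart on the lower side. That is 25% of this list, against 11.7% of all tested genes. Ptgfrn stood at 15.7, 14.7 and 19.3 FPKM with exosomes and 21.9, 21.2 and 20.2 FPKM with saline (log2 difference -0.34, adjusted p = 0.289). Igsf8 stood at 3.76, 3.79 and 3.18 FPKM with exosomes and 4.11, 3.801 and 4.89 FPKM with saline (log2 difference -0.20, adjusted p = 0.478), and exosome 2 and saline 2 all but touched. Itga3, an integrin subunit of the same complexes, was at 4.48 ± 0.721 FPKM in the exosome group and 3.64 ± 0.412 FPKM in the saline group (SD, n = 3 each) and overlapped.

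RAB proteins and their partners held 15 tested genes, 7 higher and 8 lower. Groups were apart for 3 as higher (20%) and 2 as lower (13.3%), against 9.4% and 11.7% of all tested genes. Myrip, which links RAB27 to myosin motors, had 5.54, 8.17 and 5.38 FPKM with exosomes, against 3.78, 4.195 and 3.08 FPKM with saline (log2 difference 0.64, adjusted p = 0.261). Rab35, a RAB of endosome recycling and exosome docking, had 46.8, 39.01 and 46.2 FPKM with exosomes, against 35.9, 32.9 and 37.4 FPKM with saline (log2 difference 0.30, adjusted p = 0.290). Tbc1d10b, which switches off RAB35 and RAB27A, was higher as well, at 19.7 ± 0.704 FPKM in the exosome group and 16.3 ± 0.777 FPKM in the saline group (SD, n = 3 each, adjusted p = 0.289). A further 8 genes of this list lay below the minimum, namely Rab5a and the RAB27 effectors Sytl1, Sytl2, Sytl3, Sytl5, Exph5, Mlph and Unc13d. Why these values were low was not tested.

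In the ceramide list 4 of 12 tested genes were higher and 8 lower. Sgms1, a sphingomyelin synthase of the Golgi, had 25.1, 25.98 and 24.7 FPKM with exosomes, against 21.9, 19.2 and 22.4 FPKM with saline (log2 difference 0.25, adjusted p = 0.307). Sphk1, which phosphorylates sphingosine, ran from 0.483 to 3.54 FPKM with exosomes and from 0.199 to 0.581 FPKM with saline, and rested on 16 to 372 reads. Cers4, a ceramide synthase, ran from 9.18 to 15.1 FPKM with exosomes and from 12.3 to 20.3 FPKM with saline (adjusted p = 0.337). The 8 fusion SNARE genes, 9 genes of budding at the plasma membrane and 15 genes of calcifying vesicle cargo and mineral included none with groups apart. Of all tested genes 9.4% were apart as higher and 11.7% as lower. The leading genes of these lists by p were Vamp7 (log2 difference -0.32, adjusted p = 0.358), Ndfip1 (-0.24, adjusted p = 0.380) and the phosphate transporter Slc20a2 (0.29, adjusted p = 0.421). Next in these lists came Stx1a (0.22), Vamp3 (-0.14), Itch (-0.09), Flot1 (-0.09), the phosphate transporter Slc20a1 (0.24) and Sort1 (-0.24), the sortilin that loads alkaline phosphatase into calcifying vesicles.

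**Figure D5:**
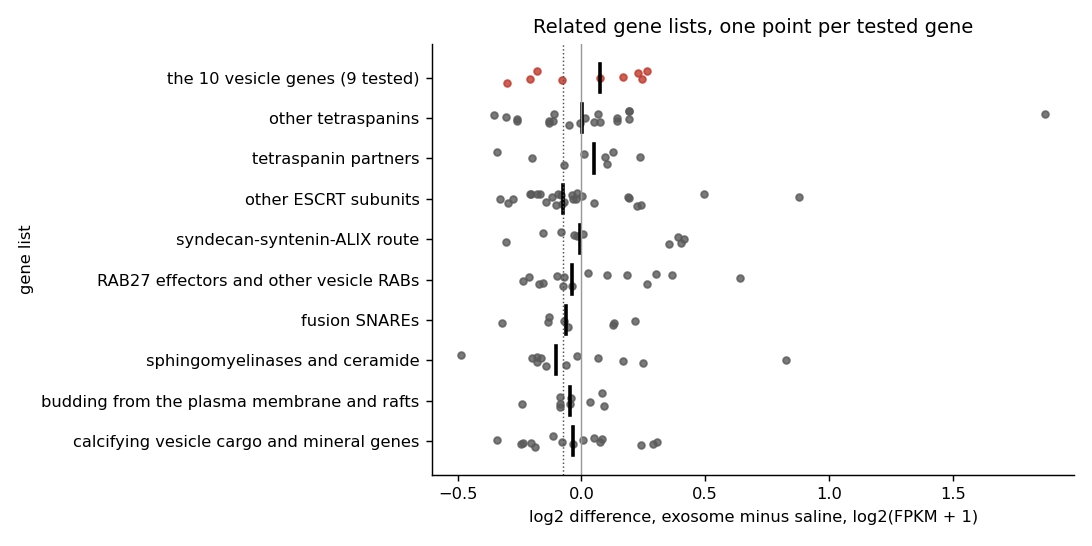
Log2 difference, exosome minus saline on the log2(FPKM + 1) scale, of each tested gene in the set of 10 and in 9 related lists. Points are genes, black bars list medians, and the dotted line the median of all tested genes, -0.073. List medians lie between -0.10 and 0.07, and the point at 1.87 is Cd151.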

How the data were processed

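RNA-seq of rat aorta gave 3 exosome and 3 saline libraries, assigned by their labelled treatment. The authors deposited FPKM, with 1 column per library. Per the labels' protocols, libraries were made with a SMARTER mRNA kit, and per the submitters' processing notes DESeq2 1.28.1 was among the tools, its role unstated. Aligner, counter, strand setting, build and annotation: not given in the sources used here. Reads shared with paralogs or overlapping genes therefore could not be separated.

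Whole reads were recovered from the FPKM steps for all 18430 symbols above 0, within 0.001 reads. Depth is given with the results, and counting error is small for all members but Rab27b. Two-sided tests used limma 3.58.1 (R 4.3.3), with an intensity trend, on values transformed to log2(FPKM + 1), over the 11742 genes with a mean of at least 1 FPKM, with Benjamini-Hochberg adjustment over all of them. Log2 differences on that scale understate the change of low genes. Ratios were tested by exact permutation. The fit was tested on simulated data with changes larger than the differences of the members. That test therefore does not show whether differences of the members' size would be found. Named genes were all members and the 3 tested genes of each list with the smallest p. The members, lists and tests were chosen with earlier results of these data known. Alternatives were pseudocounts, filters, rescaling, moderation without trend, a replicate block, limma-voom on recovered reads and each library left out. Counts of groups that do not overlap under other settings were added after seeing the data. Other tools were pandas 2.3.3, numpy 2.4.6 and matplotlib 3.10.9 under Python 3.11.15.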

Additional observations from a re-analysis of the deposited data

How the results depend on the processing

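Across 15 alternatives no member passed the adjusted threshold, and the smallest adjusted p of any member was 0.117, for Pdcd6ip without exosome 2. Of 135 member values under these alternatives 133 kept their direction and 2 reversed. Rab27a turned to 0.067 without exosome 3, within a range of -0.350 to 0.067 over the left-out libraries, and Smpd3 to -0.005 without saline 3, within -0.005 to 0.351. Ranges over left-out libraries for ratios that reversed were -0.397 to 0.351 for Rab27a over Rab27b (higher without exosome 3 or saline 1) and -0.088 to 0.046 for Sdcbp over Pdcd6ip (higher without exosome 3 or saline 2). The number of genes past the threshold over all genes was 2 with limma-voom on recovered reads and 0 to 9 over the left-out libraries, and the cause was not tested. Members apart as higher numbered 3 after rescaling to equal sums (all genes 11.5%), 2 after rescaling to the median of ratios (all genes 12.2%), and 3 or 4 over the left-out libraries (all genes 11.7% to 15.4%). Without saline 1, Cd63 joined them and Cd9, Cd81, Tsg101 and Rab27b were apart as lower (all genes 24.5%), while Tsg101 was apart as lower without exosome 2 (all genes 33.5%) and Cd81 without exosome 3 (all genes 14.04%). Same-numbered libraries gave r = 0.068, 0.096 and -0.165 for their deviations from the group mean, and differently numbered ones r from -0.236 to 0.213. The numbers gave no sign of a pairing, but with 3 libraries a group this check cannot show that none exists. With the replicate block, which in a balanced design can move only the p, 1 gene passed over all genes, no member did, and Cd81 had an adjusted p of 0.349. With 3 libraries a group the 95% intervals limit what can be told, and depth limits only Rab27b among the members.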
